A study of Homo sapiens with 15 samples.

Results

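The genes described here make prostaglandins and leukotrienes from arachidonic acid or receive the prostaglandin E2 signal. They were taken by symbol from the deposited count table, and all 8 names (PTGS1, PTGS2, PTGES, PTGER2, PTGER4, ALOX5, ALOX5AP and LTA4H) were found among its 60286 genes. RNA was sequenced from THP-1 cells, a wild-type human monocytic leukaemia line, in 15 libraries of 5 groups with 3 libraries each. The NC group received PBS without vesicles. Bacterial extracellular vesicles (BEVs) from *E. coli* were given at 1 μg/mL to EUC, after isolation by ultracentrifugation (UC), and to EPL, after precipitation with ε-poly-L-lysine (PL). BEVs from *S. aureus* were given at 10 μg/mL to SUC after UC and to SPL after PL. The study's methods give 6 hours of incubation, while the sample labels give Day 0. Species and dose changed together in this design and cannot be told apart. The libraries come from a single cell line. The study's methods speak of triplicates for each group without saying whether these were wells of the same culture or separate cultures, so the p-values measure the spread between these libraries, which may be technical.

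Prostaglandins start with a cyclooxygenase, which turns free arachidonic acid into prostaglandin H2. PTGS1 encodes the form that most cells carry at rest, and PTGS2 the form that bacterial products and cytokines induce in monocytes and macrophages. PTGES encodes the inducible microsomal synthase that makes prostaglandin E2 from prostaglandin H2, and PTGER2 and PTGER4 encode receptors of prostaglandin E2 that raise cAMP. The leukotriene branch starts from the same fatty acid. ALOX5 encodes 5-lipoxygenase, ALOX5AP the membrane protein (FLAP) that presents arachidonic acid to it, and LTA4H the hydrolase that makes leukotriene B4, a chemoattractant for neutrophils.

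Counts of 14399421 to 16637345 reads per library were assigned to genes. The levels below are in CPM, counts scaled to a common library size, and fold changes come from edgeR's quasi-likelihood test over 17198 genes with enough counts, with p-values adjusted by the Benjamini-Hochberg method over all of them. A gene was called differentially expressed (DEG) where it changed by at least 2-fold and its adjusted p did not exceed 0.01, after the thresholds of the study. GAPDH, the reference gene of the study, lay between 668 and 747 CPM in all libraries. Of 9 monocytic markers, 8 were at 1 CPM or more in every library, and CD68 was at 0.192 CPM or less in all of them. The summed level of these markers was 1050 to 1069 CPM in NC and 1638 to 2168 CPM in the BEV groups, of which SPI1 made up a mean of 471 CPM in NC and means of 960 to 1198 CPM in the BEV groups. The markers did not move together. CSF1R, CD36 and CD14 also had higher means in every BEV group than in NC. ITGAM, LYZ and CD33 had lower means in every BEV group, and FCGR1A in all but SUC. Of 20 markers of other cell types, 14 were under 1 CPM in every library and the highest reached 12.6 CPM. The 3 fibroblast markers summed to 2.15 to 3.01 CPM in NC and 3.37 to 8.53 CPM in the BEV groups, where the means of COL1A1 and DCN were higher and that of PDGFRB was lower. The part of these marker levels in the results was not tested. In bulk RNA, fewer cells that express a gene and less RNA of it per cell cannot be told apart.

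The 4 genes that were DEGs in every BEV group were PTGS2, PTGES, PTGER2 and ALOX5AP, each higher than in NC, as 6.33% of all tested genes were in every BEV group. In EUC these 4 stood beside a share of 9.43% of all tested genes called higher, and LTA4H was called lower beside 5.75% of all genes. In EPL the same genes were called, beside 9.38% called higher and 5.15% called lower among all genes. In SUC and SPL, 4 of the 8 were called higher beside 6.82% and 7.76% of all genes, and 0 of the 8 were called lower beside 3.06% and 3.70%. PTGS1 and PTGER4 passed the adjusted p with changes under 2-fold in every BEV group, where 16.5%, 16.0%, 12.4% and 13.3% of all genes passed it as higher in EUC, EPL, SUC and SPL. LTA4H passed it as lower in every BEV group and ALOX5 in EUC, where 14.0%, 13.2%, 9.15% and 10.6% of all genes did so in the same order. The median log2 fold change over the 8 genes was 1.08, 0.94, 1.25 and 1.08 in the same order, and the median over all tested genes was between -0.0065 and 0.0067. All 8 genes passed the filter on low counts, but PTGES and PTGER2 passed it only through BEV libraries, so that a difference was built into their being tested. All 4 comparisons share the NC libraries and are not independent of each other.

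**Figure D1:**
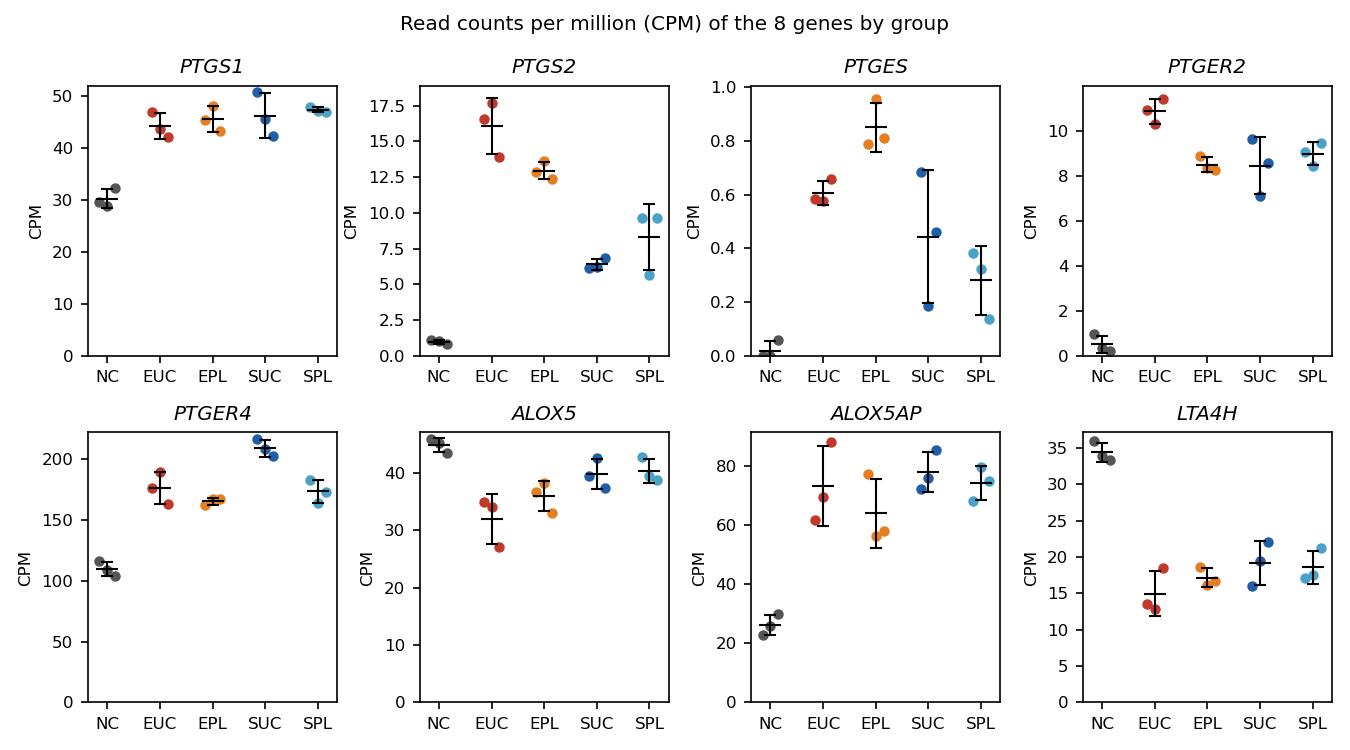
Levels (CPM, linear axis from 0) of the 8 genes in each of the 15 libraries, by group, where points are libraries and the black marks are the mean ± SD of 3 libraries. In every panel the 3 NC points lie apart from the 12 BEV points, and the share of all tested genes that separate in this way was not determined. The NC points lie below the BEV points for PTGS1, PTGS2, PTGES, PTGER2, PTGER4 and ALOX5AP and above them for ALOX5 and LTA4H.

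The bases just before the transcription start were read for the genes with the largest rises, PTGS2, PTGES and PTGER2, and for PTGS1 as the other cyclooxygenase. RefSeq promoters of GRCh38.p14 were found for 7 of the 8 genes, and the stretch before the RefSeq start is printed, 5′ to 3′ on the strand of the gene. For PTGS2 a longer GENCODE transcript starts further upstream, so that its stretch lies inside the annotated gene, in an intron of that transcript. Capitals mark exact matches, on either strand, to a TATA box (TATAAA), a cAMP response element half-site (TGACG) or a C/EBP site (TTNNGNAA). They also mark an AP-1 site (TGANTCA), a GC box (GGGCGG) or an NF-kappa B site (GGGRNNYYCC). N is any base, R is A or G, and Y is C or T.
PTGS2, chr1:186680424-186680673, minus strand: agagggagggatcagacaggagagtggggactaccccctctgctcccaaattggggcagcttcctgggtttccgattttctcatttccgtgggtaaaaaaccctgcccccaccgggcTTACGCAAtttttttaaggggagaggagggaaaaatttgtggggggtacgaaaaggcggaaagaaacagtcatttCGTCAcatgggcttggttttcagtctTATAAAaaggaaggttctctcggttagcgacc
PTGS1, chr9:122370283-122370529, plus strand: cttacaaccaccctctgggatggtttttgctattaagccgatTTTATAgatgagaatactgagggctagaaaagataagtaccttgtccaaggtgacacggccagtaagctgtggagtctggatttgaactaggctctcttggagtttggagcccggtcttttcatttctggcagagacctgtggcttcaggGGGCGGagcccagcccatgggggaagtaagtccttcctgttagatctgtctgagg
PTGES, chr9:129753043-129753292, minus strand: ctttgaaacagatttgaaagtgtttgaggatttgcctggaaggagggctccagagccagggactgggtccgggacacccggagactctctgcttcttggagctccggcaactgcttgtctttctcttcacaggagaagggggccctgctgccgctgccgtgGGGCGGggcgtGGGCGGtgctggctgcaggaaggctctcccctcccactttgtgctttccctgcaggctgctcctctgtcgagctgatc
PTGER2, chr14:52314062-52314304, plus strand: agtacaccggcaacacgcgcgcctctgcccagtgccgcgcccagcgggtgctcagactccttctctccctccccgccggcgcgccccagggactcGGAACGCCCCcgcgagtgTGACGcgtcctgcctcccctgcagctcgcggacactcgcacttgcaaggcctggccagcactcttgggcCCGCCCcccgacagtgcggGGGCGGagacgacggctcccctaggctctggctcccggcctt

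With -1 as the base before the RefSeq start, the PTGS2 window held a TATA box from -32 to -27, a cAMP response element half-site read on the other strand from -58 to -54, and a C/EBP match from -133 to -126. The PTGS1 window held a GC box from -58 to -53 and TATA box letters, on the other strand, only at -208 to -203, far from the start. RefSeq lists 2 starts of PTGS1, of which the first is shown. The PTGES window held GC boxes from -89 to -84 and from -78 to -73. The PTGER2 window held a cAMP response element half-site from -137 to -133, an NF-kappa B match from -155 to -146 and 2 GC boxes, and 73.3% of its bases were G or C, against 50.4% for PTGS2. Among 35114 promoter windows, the TATA box letters were present in 10.7%, the cAMP half-site in 21.2%, the C/EBP letters in 33.2%, the AP-1 letters in 6.57%, the GC box in 42.6% and the NF-kappa B letters in 9.96%. The matches are descriptions of letters in these windows only. A site that departs from the letters was not marked. A window without a match, as that of PTGS2 for NF-kappa B, is therefore not shown to lack such a site. Of the promoters not printed, PTGER4 held 4 GC boxes and an NF-kappa B match, LTA4H a C/EBP match, and ALOX5AP none of the 6 motifs.

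PTGS2 (ENSG00000073756, chr1:186671791-186680922 on hg38, minus strand), the inducible cyclooxygenase, stood at 1.09, 1.06 and 0.835 CPM in the 3 NC libraries. In EUC it reached 16.6, 17.7 and 13.9 CPM, and in EPL 12.9, 13.6 and 12.4 CPM. In SUC it was 6.15, 6.25 and 6.87 CPM, and in SPL 9.65, 5.67 and 9.65 CPM. Every BEV library was therefore above every NC library, and every *E. coli* library was above every *S. aureus* library. The log2 fold change against NC was 4.01 ± 0.22 (SE, n = 3 against 3 libraries) in EUC and 3.70 ± 0.22 in EPL, with edgeR's adjusted p = 1.00e-10 and 3.65e-10. It was 2.68 ± 0.23 in SUC and 3.06 ± 0.23 in SPL, with edgeR's adjusted p = 7.88e-08 and 9.02e-09. On the linear scale these are 16.1-fold, 13.0-fold, 6.43-fold and 8.32-fold rises. PTGS2 shares 219 exonic bases with the antisense lncRNA PACERR, which had at most 7 counts in a library, while the strand setting of the counting is not given in the sources used here.

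PTGS1 (ENSG00000095303, chr9:122370530-122395703, plus strand), the constitutive cyclooxygenase, stood at 29.7, 28.8 and 32.3 CPM in NC and rose to between 42.1 and 50.9 CPM in the BEV libraries. The mean level was 44.3 ± 2.47 and 45.7 ± 2.42 CPM in EUC and EPL, and 46.3 ± 4.30 and 47.4 ± 0.466 CPM in SUC and SPL (SD, n = 3). The BEV libraries did not overlap NC, and among the BEV groups all pairs overlapped except EUC and SPL. The log2 fold changes were 0.55, 0.59, 0.61 and 0.65 in EUC, EPL, SUC and SPL, each with a SE of 0.087 and with edgeR's adjusted p between 1.46e-05 and 6.65e-05. PTGS1 thus passed the adjusted p in each group with a rise of 1.46-fold to 1.57-fold, under the 2-fold limit.

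The 2 cyclooxygenases were compared per kilobase of exon (CPM per kb), since PTGS1 and PTGS2 have 5.78 and 5.48 kb of exon. The ratio of PTGS2 to PTGS1 was 0.0349 ± 0.00661 (SD, n = 3) in NC. It was 0.383 ± 0.0389 in EUC and 0.300 ± 0.00231 in EPL, and 0.148 ± 0.0219 in SUC and 0.185 ± 0.0507 in SPL. PTGS2 remained below PTGS1 per length in every library, with the highest ratio, 0.426, in EUC2.

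PTGES (ENSG00000148344, chr9:129738331-129753042, minus strand), the inducible prostaglandin E2 synthase, was barely counted. It had 0, 0 and 1 reads in the NC libraries, 9, 9 and 10 in EUC, 12, 15 and 13 in EPL, 10, 3 and 7 in SUC and 6, 5 and 2 in SPL. Even the highest library, EPL2, came to 0.956 CPM, and the lowest BEV library, SPL3 with 0.138 CPM, was still above NC3 with 0.0596 CPM. Against the single NC read, the ratio of normalized counts was 29.9 (95% exact binomial interval 4.95 to 1224) in EUC and 42.1 (7.13 to 1703) in EPL. The ratio was 21.6 (3.45 to 894) in SUC and 14.1 (2.11 to 597) in SPL, and these intervals cover counting error only. The adjusted p from edgeR was 2.45e-04, 5.29e-05, 0.00149 and 0.00831 in EUC, EPL, SUC and SPL. The call in SPL was lost under 8 of the other settings, with adjusted p of 0.0113 to 0.0388, and the call in SUC was lost without NC2. In fits to the compared groups only, PTGES did not pass the filter on low counts in EUC, SUC or SPL against NC and was not tested there. Without NC3, the only NC library with a read, the fitted log2 fold changes were 5.18 to 6.74, which depend on the prior count and are no bounds.

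PTGER2 (ENSG00000125384, chr14:52314305-52328598, plus strand), the EP2 receptor of prostaglandin E2, was at 0.960, 0.353 and 0.238 CPM in NC, from 15, 6 and 4 reads. It was at 10.9, 10.3 and 11.4 CPM in EUC and 8.86, 8.35 and 8.24 CPM in EPL. In SUC it was at 9.63, 7.12 and 8.58 CPM, and in SPL at 9.07, 8.44 and 9.44 CPM. All BEV libraries lay far above NC, and the EUC libraries lay above those of every other group. The log2 fold change was 4.39 ± 0.26 and 4.04 ± 0.26 in EUC and EPL, and 4.03 ± 0.27 and 4.12 ± 0.26 in SUC and SPL (SE, n = 3 against 3), with edgeR's adjusted p between 3.51e-10 and 2.25e-09. NC1 held more reads of PTGER2 than the other NC libraries, and without it the log2 fold changes were 5.15, 4.80, 4.80 and 4.89 in the same order.

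PTGER4 (ENSG00000171522, chr5:40679915-40693735, plus strand), the EP4 receptor, had the highest mean level per length of the 8 genes in every group, although ALOX5AP was above it in EUC3, EPL1 and SPL2. It was at 116, 109 and 104 CPM in NC, 176, 189 and 163 CPM in EUC, and 162, 167 and 167 CPM in EPL. In SUC it was at 216, 208 and 202 CPM and in SPL at 183, 164 and 173 CPM. The SUC libraries were the highest of all 15 and did not overlap any other group. The log2 fold change was 0.68, 0.59, 0.93 and 0.66 in EUC, EPL, SUC and SPL, each with a SE of 0.077, and edgeR's adjusted p was between 4.97e-08 and 7.84e-06. The rises of 1.51-fold to 1.91-fold passed the adjusted p and stayed under the 2-fold limit. Per kilobase, the ratio of PTGER2 to PTGER4 was 0.00662 ± 0.00461 in NC and 0.0891 ± 0.0113, 0.0739 ± 0.00425, 0.0581 ± 0.00788 and 0.0746 ± 0.00367 in EUC, EPL, SUC and SPL (SD, n = 3).

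ALOX5 (ENSG00000012779, chr10:45374176-45446119, plus strand), the 5-lipoxygenase, was at 45.8, 45.2 and 43.4 CPM in NC, 34.9, 34.0 and 27.0 CPM in EUC and 36.6, 38.2 and 33.0 CPM in EPL. In SUC it was at 39.4, 42.6 and 37.4 CPM and in SPL at 42.7, 39.5 and 38.8 CPM. Every BEV library was below every NC library, with EUC3 the lowest. ALOX5 fell in EUC by 0.49 on the log2 scale, with edgeR's adjusted p = 8.08e-04, which is under the 2-fold limit. The log2 difference from NC was -0.32 (95% interval -0.53 to -0.11, adjusted p = 0.0178) in EPL and did not pass. It passed with a replicate block (0.00688) and without EUC3, EPL1 and SUC3 (0.00163), again under 2-fold. It was -0.17 (-0.38 to 0.04) in SUC and -0.15 (-0.36 to 0.06) in SPL, with edgeR's adjusted p = 0.215 and 0.273.

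ALOX5AP (ENSG00000132965, chr13:30713478-30764426, plus strand), the partner of 5-lipoxygenase, rose in every BEV group. It was at 23.0, 25.8 and 29.9 CPM in NC, 61.8, 69.7 and 88.2 CPM in EUC and 77.5, 56.5 and 58.1 CPM in EPL. In SUC it was at 72.3, 76.2 and 85.5 CPM and in SPL at 68.2, 79.9 and 74.9 CPM. The lowest BEV library, EPL2, was well above the highest NC library, and the BEV groups overlapped each other. The log2 fold change was 1.48, 1.29, 1.57 and 1.50 in EUC, EPL, SUC and SPL, each with a SE of 0.15, and edgeR's adjusted p was between 2.27e-07 and 1.73e-06. Per kilobase, ALOX5AP and ALOX5 were near each other in NC, with a ratio of 1.30 ± 0.208, and ALOX5AP exceeded ALOX5 in the BEV groups, with ratios of 5.25 ± 1.77, 3.96 ± 0.711, 4.38 ± 0.609 and 4.10 ± 0.495 (SD, n = 3).

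LTA4H (ENSG00000111144, chr12:96000753-96043520, minus strand), the last enzyme on the way to leukotriene B4, was at 35.9, 33.9 and 33.3 CPM in NC. It was at 13.5, 12.8 and 18.5 CPM in EUC and 18.6, 16.1 and 16.7 CPM in EPL. In SUC it was at 16.0, 19.5 and 22.0 CPM and in SPL at 17.1, 17.5 and 21.2 CPM. All 12 BEV libraries were below all NC libraries, and the BEV groups overlapped each other. LTA4H fell by 1.20 on the log2 scale in EUC and by 1.00 in EPL, each with a SE of 0.14 and with edgeR's adjusted p = 2.50e-06 and 1.85e-05. It fell by 0.84 in SUC and 0.89 in SPL, with adjusted p = 1.48e-04 and 8.10e-05 from the same test, short of the 2-fold limit. The call in EPL lay on that limit, and its log2 fold change moved between -1.07 and -0.96 when single libraries were left out. LTA4H overlaps 2 antisense lncRNAs over 804 and 121 exonic bases, which had at most 2 counts and no counts in a library.

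**Figure D2:**
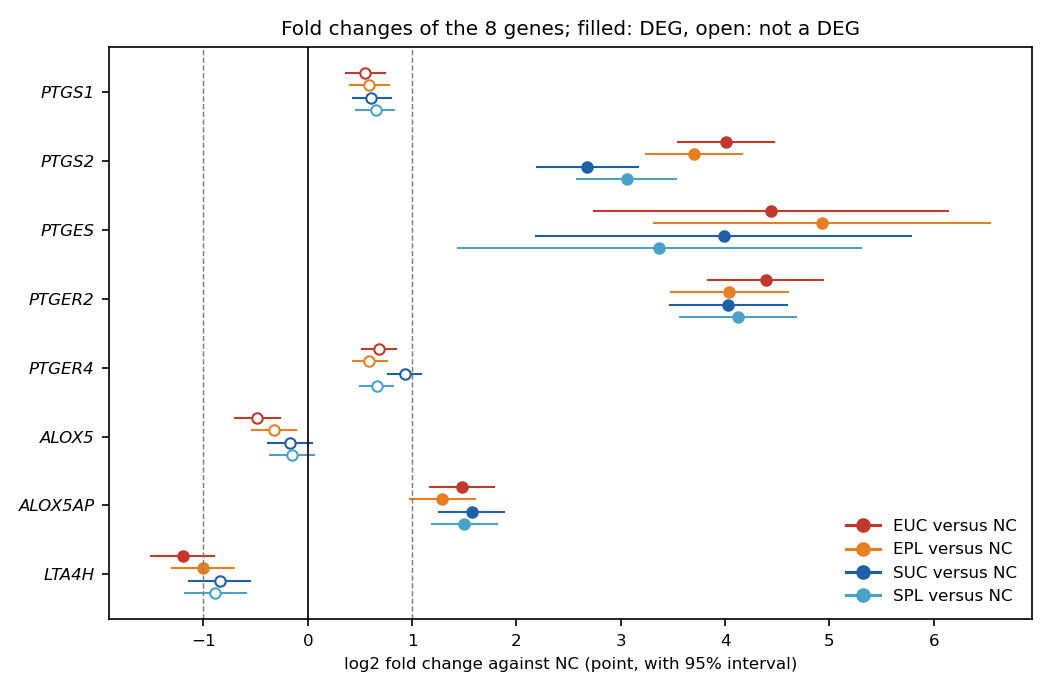
Log2 fold change against NC (horizontal axis) of the 8 genes in the 4 BEV groups, with 95% intervals from edgeR's quasi-likelihood fit, where filled points are DEGs, open points are not and dashed lines mark 2-fold. PTGS2, PTGES, PTGER2 and ALOX5AP lie to the right of the limit in all groups, PTGS1 and PTGER4 between 0.55 and 0.93, and LTA4H near the lower limit with -1.20 to -0.84.

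Per length, the order of the genes changed little at its top and more below. In NC the means were 30.9 CPM per kb for PTGER4, 15.6 for ALOX5AP, 12.0 for ALOX5, 5.23 for PTGS1 and 4.64 for LTA4H. PTGER2 with 0.210 ± 0.157 CPM per kb and PTGS2 with 0.181 ± 0.0253 did not differ beyond their spread in NC, and PTGES was last with 0.0105 CPM per kb. In EUC, PTGER2 with 4.39 ± 0.228 and PTGS2 with 2.93 ± 0.353 CPM per kb stood above LTA4H with 2.02 ± 0.421. Before division by length, their EUC means were 10.8, 16.1 and 15.0 CPM. The order per length thus rests on annotated exon lengths of 2.46, 5.48 and 7.41 kb and is uncertain. In EPL, PTGS2 with 2.37 ± 0.112 CPM per kb and LTA4H with 2.32 ± 0.177 were within their spread of each other. In SUC and SPL, LTA4H with 2.59 ± 0.407 and 2.51 ± 0.309 CPM per kb stood above PTGS2 with 1.17 ± 0.0708 and 1.52 ± 0.419.

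**Figure D3:**
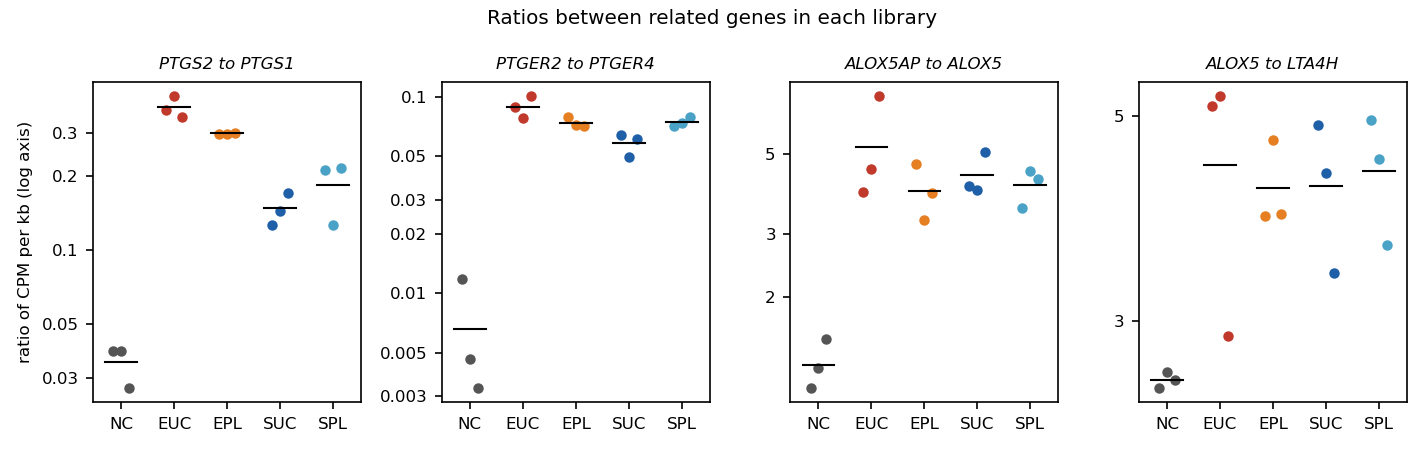
Ratios of CPM per kb between related genes (log axis, with its own range in each panel) in each library, by group, where points are libraries and lines are the means of 3. The ratios of PTGS2 to PTGS1, PTGER2 to PTGER4 and ALOX5AP to ALOX5 are higher in all BEV libraries than in NC. The ratio of ALOX5 to LTA4H is too, with 2.54 to 2.64 in NC and its lowest BEV value, 2.89, in EUC3.

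A comparison of the study was that between UC and PL preparations of the same species. For the isolation methods, 0 of the 8 genes passed an adjusted p of 0.01 in EPL against EUC, where 0% of all genes passed it in edgeR's test. In SPL against SUC, 0 of the 8 passed it, and 0.00581% of all genes did. Before adjustment, p in this test was 0.05 or less for 0 of the 8 and 604 of all 17198 genes in EPL against EUC. It was so for 2 of the 8 and 1000 of all genes in SPL against SUC. Some genes reach such a p without any difference, so these numbers by themselves show no difference between the methods. DESeq2 called 0 of the 8 as DEGs in both comparisons, and 0 and 2 genes of all. PTGS2 differed between EPL and EUC by -0.31 on the log2 scale, with a 95% interval of -0.65 to 0.03, and the EPL libraries all lay below the EUC libraries. Between SPL and SUC the difference in PTGS2 was 0.37 with an interval of 0.0013 to 0.74, edgeR's adjusted p was 0.854, and SPL2 fell below the SUC libraries. PTGER2 was lower in each EPL library than in each EUC library, with a log2 difference of -0.35 and an interval of -0.73 to 0.02. PTGER4 was lower in each SPL library than in each SUC library, with a log2 difference of -0.27, an interval of -0.43 to -0.11 and an adjusted p of 0.727 in edgeR's test. For PTGS1 the intervals of the method difference ran from -0.14 to 0.23 for *E. coli* and from -0.15 to 0.22 for *S. aureus* BEVs. For ALOX5AP they ran from -0.49 to 0.10 and from -0.37 to 0.23, for ALOX5 from -0.04 to 0.38 and from -0.19 to 0.23, and for LTA4H from -0.11 to 0.51 and from -0.35 to 0.26. For PTGES, with few reads, they were as wide as -0.46 to 1.43 and -1.78 to 0.54. The EPL libraries all lay above the EUC libraries in PTGES, at 0.787 to 0.956 against 0.577 to 0.657 CPM. The share of all tested genes whose libraries separate in these comparisons was not determined.

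In the comparison of the method difference between the species, 0 of the 8 genes passed, and 0% of all genes did by edgeR's test, while 659 genes, 1 of the 8 among them, had an unadjusted p of at most 0.05. DESeq2 called 0 of the 8 and 3 genes of all. PTGS2 was lower with PL than with UC for *E. coli* and higher for *S. aureus* BEVs, and the difference between these was -0.68 on the log2 scale (95% interval -1.18 to -0.18). Its unadjusted p was 0.0106 and edgeR's adjusted p was 1.000.

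Of the 8 genes, PTGS2 passed the adjusted p between the *E. coli* groups (1 μg/mL) and the *S. aureus* groups (10 μg/mL), where 2.87% of all genes passed it as higher in the *E. coli* groups. Its mean log2 level was 0.98 higher with *E. coli* BEVs (95% interval 0.73 to 1.23, edgeR's adjusted p = 4.57e-05), a 1.98-fold difference just short of the 2-fold limit. It was above that limit without EUC3, SUC3, SPL1 or SPL3, with log2 values of 1.01 to 1.03, and without EUC3, EPL1 and SUC3 together, with 1.05. No other gene of the 8 passed, but ALOX5AP did without EUC3, EPL1 and SUC3, at -0.28 with an adjusted p of 0.00330 in edgeR's test. PTGES was 1.01 higher on the log2 scale with an interval of 0.27 to 1.75 and edgeR's adjusted p = 0.113. ALOX5 and PTGER4 were lower by -0.24 (-0.39 to -0.09) and -0.16 (-0.27 to -0.04), with adjusted p = 0.0533 and 0.104 in edgeR's test. PTGS1 at -0.06 (-0.19 to 0.07), PTGER2 at 0.14 (-0.13 to 0.41), ALOX5AP at -0.15 (-0.36 to 0.06) and LTA4H at -0.24 (-0.45 to -0.02) did not pass either.

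EUC3, EPL1 and SUC3 stood apart from the other libraries of their groups. The chi-square per gene between libraries of a group was 2.2 to 7.09 in pairs without them and 15.56 to 46.12 in pairs with one of them. Their log2 CPM deviated from the group mean by 0.28, 0.29 and 0.14 for ALOX5AP and by 0.33, 0.12 and 0.21 for LTA4H. Both genes therefore deviated upward in all 3 libraries. Without these libraries, 5, 5, 4 and 3 of the 8 genes were DEGs in EUC, EPL, SUC and SPL, and the gene lost in SPL was PTGES.

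Other genes of the eicosanoid pathway were described with a list of 60, sorted by role. Of these, 41 passed the filter on low counts, 7 of them with fewer than 3 NC libraries over it, and 19 did not, including 5 without a count in any library. In EUC 13 were called higher and 4 lower, and in EPL 11 and 5. In SUC 8 were called higher and 5 lower, and in SPL 10 and 3. Of all tested genes, 9.43%, 9.38%, 6.82% and 7.76% were called higher and 5.75%, 5.15%, 3.06% and 3.70% lower in these groups. The median log2 fold change of the 41 genes was -0.03, -0.02, 0.08 and -0.01 in EUC, EPL, SUC and SPL. There were 8 genes that rose and 3 that fell as DEGs in all 4 BEV groups, as 6.33% and 2.41% of all tested genes did. Of the 8, PLA2G7, CYP4F3 and CMKLR1 passed the filter only through BEV libraries, so that for them too a difference was built in. DPEP1, called lower in EUC, EPL and SUC, had 3 NC libraries but only 1 BEV library over the filter. For DPEP1 a difference was built in the other way.

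Among the genes listed with the phospholipases and lipases, those that rose as DEGs in all 4 groups were PLA2G4C, MGLL and PLA2G7. PLA2G4C, a calcium-independent cytosolic phospholipase A2, had a mean of 5.12 CPM in NC and of 41.3 to 49.6 CPM in the BEV groups, a rise of 8.05-fold to 9.67-fold. MGLL, the monoacylglycerol lipase, which can supply arachidonic acid from 2-arachidonoylglycerol, had 2.67 CPM in NC and 131, 133, 70.4 and 99.0 CPM in EUC, EPL, SUC and SPL, with log2 fold changes of 4.72 to 5.64. PLA2G7, the secreted phospholipase that breaks down platelet-activating factor, had 1 read over the NC libraries and 489, 410, 204 and 278 reads in the same groups. PLAA, the phospholipase A2-activating protein and the most abundant of this role in NC, rose by 1.32-fold to 1.50-fold, under the 2-fold limit. PLA2G4A, another cytosolic phospholipase A2, passed edgeR's adjusted p as higher in all 4 groups. It rose by 2.21-fold in EUC, where it was a DEG, and by 1.93-fold, 1.78-fold and 1.88-fold in EPL, SUC and SPL. The other 4 of the 9 tested genes of this role did not pass in any group.

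Among the other prostanoid synthases, AKR1C3, a prostaglandin F synthase, rose from 3.78 CPM to means of 12.6 to 15.7 CPM, with log2 fold changes of 1.73 to 2.05. PRXL2B, another prostaglandin F synthase, fell from 6.05 CPM to means of 1.67 to 2.27 CPM, with log2 fold changes of -1.85 to -1.42. PTGES3, the cytosolic prostaglandin E synthase and heat shock protein co-chaperone, was the most abundant at 355 CPM in NC, and its log2 differences of -0.23 to -0.05 did not pass. Among the receptors, PTGIR, the prostacyclin receptor, which raises cAMP like PTGER2 and PTGER4, rose by 4.88-fold to 6.35-fold from 4.27 CPM in NC. TBXA2R, the thromboxane receptor, had the highest NC level among the prostanoid receptors other than PTGER2 and PTGER4, at 5.48 CPM, and was not called in any group. ABCC4, which exports prostaglandins, passed the adjusted p as lower in all 4 groups with log2 fold changes of -0.87 to -0.59.

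In the leukotriene branch, ABCC1, the exporter of leukotriene C4, rose from 117 CPM to 534, 528, 396 and 472 CPM in EUC, EPL, SUC and SPL. It was the only riser to pass among 7 tested genes of leukotriene C4 synthesis and export. Of these 7, 3, 4, 2 and 2 passed the adjusted p as lower, beside 14.0%, 13.2%, 9.15% and 10.6% of all genes. Their median log2 fold change was -0.72, -0.73, -0.34 and -0.52. CYSLTR1, the receptor of cysteinyl leukotrienes, fell from 15.2 CPM to 4.29, 4.59, 6.91 and 6.08 CPM, and no BEV library reached the NC level. LTB4R, a receptor of leukotriene B4, was at 75.0 CPM in NC and its log2 differences of -0.24 to -0.09 did not pass. It overlaps LTB4R2 on the same strand, so the division of reads between them is uncertain. CYP4F3, an omega-hydroxylase that inactivates leukotriene B4, had 0 reads in NC and 23, 31, 16 and 19 reads in the BEV groups. After scaling for library size, these counts were 8.20-fold, 10.9-fold, 5.75-fold and 6.85-fold a limit of 3 reads over the NC group. The counting error of the BEV reads is not included, so these values are no lower bounds. COTL1, an actin-binding partner of 5-lipoxygenase, rose by 1.39-fold to 1.53-fold from 537 CPM, under the 2-fold limit.

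Of the genes tied to restraint and resolution of inflammation, CMKLR1, a receptor of chemerin and resolvin E1, had 3 reads over the NC libraries and 991, 1052, 489 and 636 reads in EUC, EPL, SUC and SPL. The ratio of normalized counts was 353 (95% exact binomial interval 121 to 1716) in EUC and 176 (59.8 to 856) in SUC. EPHX2, the soluble epoxide hydrolase, fell in all 4 groups, with log2 fold changes of -1.76 to -1.19. ANXA1, the annexin that restrains phospholipase A2 and had 146 CPM in NC, differed from NC by -0.30 to 0.06 on the log2 scale and did not pass. Between the species, 3 genes of the list passed the adjusted p, all higher with *E. coli* BEVs, as 2.87% of all tested genes did. Of these 3, 0 reached 2-fold, while 0.686% of all tested genes passed both limits in either direction.

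**Figure D4:**
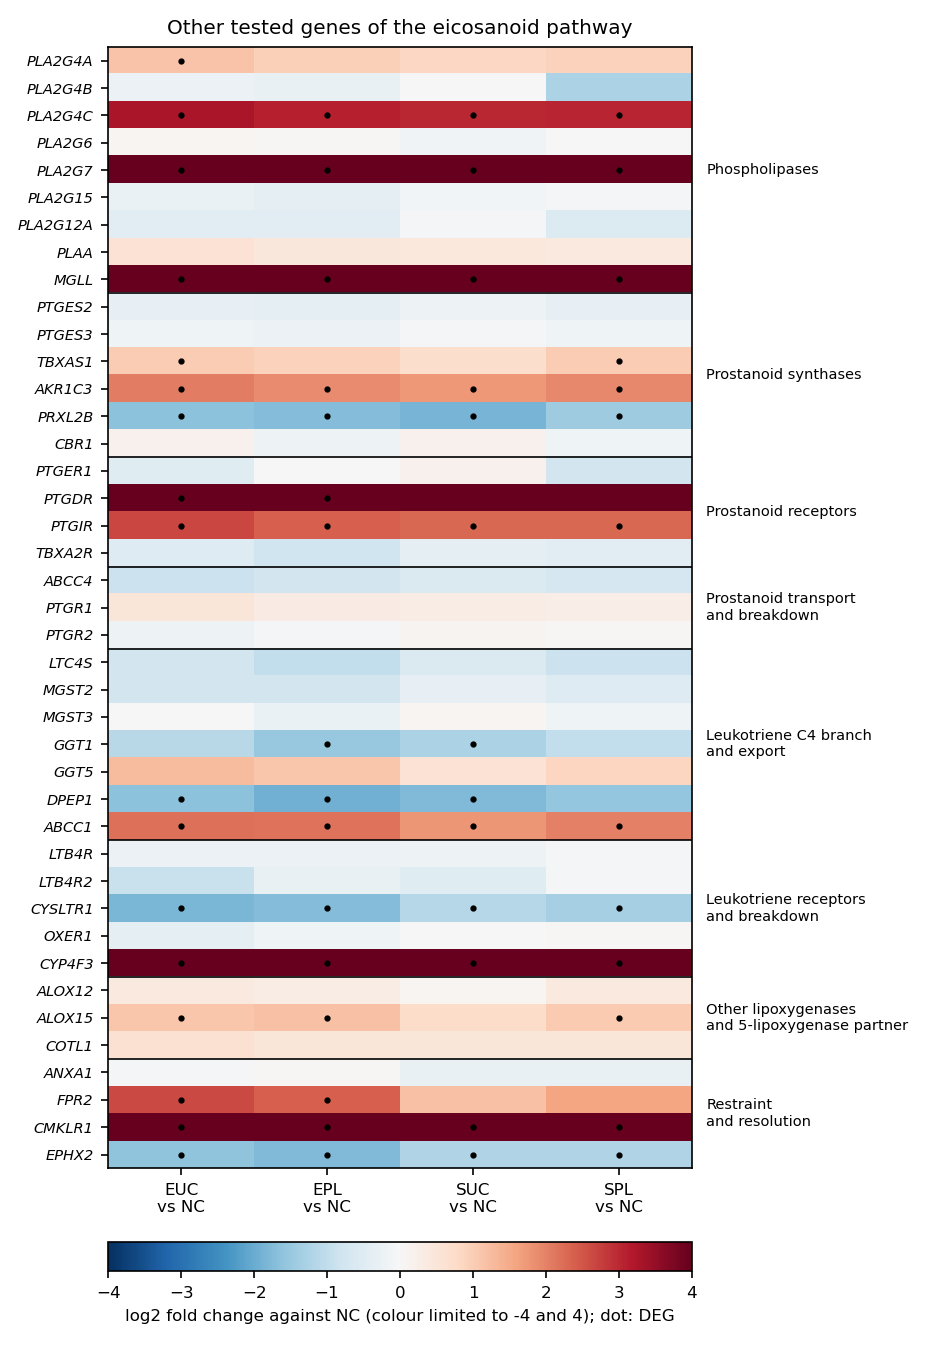
Log2 fold change against NC (colour, limited to -4 and 4) of the 41 tested genes of the pathway list in the 4 BEV groups, sorted by role, where dots mark DEGs. PLA2G4C, PLA2G7, MGLL, AKR1C3, PTGIR, ABCC1, CYP4F3 and CMKLR1 have dots on red in all 4 columns, and PRXL2B, CYSLTR1 and EPHX2 have dots on blue.

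The genes whose log2 CPM followed the 8 most closely were taken by Pearson's r over the 15 libraries, a description in which the step from NC to BEVs is shared by most of the points. For PTGS2 they were VCAM1 (r = 0.992), TMEM123 (0.991) and STAT5A (0.991), and r was 0.93 to 0.96 over the 12 BEV libraries alone. For PTGS1 they were C3 (0.977), DENND3 (0.971) and CACNA1A (0.971), and for PTGES TAGAP (0.960), NR4A3 (0.950) and C19orf47 (0.944). For PTGER2 they were MMP2-AS1 (0.991), TMEM255A (0.989) and CXCL11 (0.987), but over the BEV libraries alone r was 0.41 to 0.65. For PTGER4 they were TCF7L2 (0.955), LONRF1 (0.952) and PIK3AP1 (0.943). For ALOX5 they were CLN6 (0.949), RASA3 (0.933) and SELENON (0.923), and for ALOX5AP CTSH (0.991), ITGB2-AS1 (0.988) and MYL9 (0.988). For LTA4H they were IARS2 (0.976), NLRP12 (0.972) and INTS10 (0.969).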

How the data were processed

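The 15 libraries were put into their 5 groups by the titles and treatments in the labels, with 3 in each. The authors deposited whole-number read counts per gene, not normalized, from HISAT2 alignments (default settings) on hg38, with FastQC for read quality. The submitters' processing notes name FastQC 0.11.5, HISAT2 2.1.0, StringTie 1.3.3b, DESeq 1.28.0 and featureCounts, without roles. How strand was treated in counting, and which annotation was used, is not given in the sources read here, which leaves overlapping genes uncertain. The table has 0 rows that name no gene and 0 unused value columns. Of its 60286 genes, 23219 had no count in any library. Library totals were 14399421 to 16637345 counts, and the median was 15831655.

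Tests on the deposited counts were made with edgeR 4.0.16 (R 4.3.3). The filter was filterByExpr with a minimum count of 10, which amounts to 0.632 CPM in at least 3 libraries, and 17198 remained. A quasi-likelihood model (glmQLFit, glmQLFTest) with TMM normalization was fitted to all 15 libraries without a replicate block, and p-values were adjusted over all tested genes by the Benjamini-Hochberg method. The common biological coefficient of variation was 0.118. Standard errors and 95% intervals were derived from the fitted fold change and its F statistic, and are approximate. CPM uses the TMM-normalized library size, and log2 CPM a prior count of 2. Counts of 1 to 3 reads in NC were given ratios with exact binomial intervals, and 0 reads a limit of 3 counts over the group. Gene positions, overlaps and exon lengths (union of exons) come from GENCODE release 44 on hg38, and promoters from RefSeq (GRCh38.p14), 250 bases before each RefSeq start, shortened where another annotated start lay within them. The PTGS2 and LTA4H stretches lie in introns of longer GENCODE transcripts. Figures were drawn with matplotlib 3.10.9.

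All 8 genes are named in the text. Of the pathway list, the named genes are those called in all 4 BEV groups or between the species, and the most abundant in NC of each role. Those passing the adjusted p between the species are named in the closing section. DPEP1 is named for how it passed the filter, and PLA2G4A because it passed the adjusted p in all 4 BEV groups. For each of the 8 genes, the 3 genes with the highest Pearson's r among those with a mean of at least 1 CPM are named. These genes, lists and rules were chosen with earlier results of these data known. The scripts were tested on simulated counts with 200 changed genes. Alternatives were RLE normalization, no filter on low counts, a replicate block, a fit to the compared groups only, DESeq2 1.42.0, no fold limit, and each library left out. The joint removal of EUC3, EPL1 and SUC3 was chosen after seeing the data.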

Additional observations from a re-analysis of the deposited data

Results flagged for a closer look

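The response differed between the *E. coli* groups and the *S. aureus* groups, by edgeR's quasi-likelihood test of the difference itself, in 4 genes of the pathway. These were 1 of the 8 genes and 3 of the 41 tested genes of the list, where 2.87% of all tested genes passed as higher in the *E. coli* groups. PTGS2 was 0.98 higher on the log2 scale with *E. coli* BEVs, with edgeR's adjusted p = 4.57e-05, and all 6 *E. coli* libraries lay above all 6 *S. aureus* libraries. PLA2G7, the hydrolase of platelet-activating factor, was 0.88 higher with edgeR's adjusted p = 8.95e-04. MGLL, the monoacylglycerol lipase, was 0.66 higher with edgeR's adjusted p = 1.98e-04. CMKLR1, the chemerin and resolvin E1 receptor, was 0.84 higher with edgeR's adjusted p = 0.00209. The species and the dose of the BEVs cannot be told apart.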

How the results depend on the processing

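The counts of DEGs among the 8 genes against NC (5, 5, 4 and 4 in EUC, EPL, SUC and SPL) stayed within 1.5 times these values under RLE normalization, without the filter, with a replicate block, in a fit to the compared groups (4, 4, 3 and 3), with DESeq2 and with single libraries left out. With libraries left out they were 5 in EUC, 4 to 5 in EPL, 3 to 4 in SUC and 3 to 4 in SPL. Without the fold limit 8, 7 and 7 of the 8 genes passed in EUC, SUC and SPL. Between the species, 0 of the 8 were DEGs, and 1, PTGS2, was called without the fold limit, without EUC3, EPL1 and SUC3 together, and with single libraries left out (0 to 1, called without EUC3, SUC3, SPL1 or SPL3). Of the pathway list, 0 were DEGs between the species, 3 passed without the fold limit and 1 was a DEG without the filter on low counts. The cause was not tested.

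Whether the replicate numbers pair the libraries was not settled. Deviations from the group means correlated by a mean of 0.009 over 30 pairs with the same number (-0.452 to 0.525). Over 60 pairs with different numbers the mean was -0.004 (-0.484 to 0.488). Of 15 libraries, 9 correlated best with their own number. With the replicate block, the call of PTGES in SPL was lost (log2 fold change 3.36, adjusted p = 0.0133), and it changed no other DEG call of the 8 genes, while ALOX5 in EPL passed the adjusted p under it (0.00688) with a change under 2-fold. That call was also lost without the filter (0.0152), with DESeq2 (0.0210) and without NC1, NC2, SPL1 or SPL2 (0.0253 to 0.0388), and the call of PTGES in SUC was lost without NC2, with an adjusted p just over the limit. LTA4H in EPL slipped just under 2-fold with RLE, DESeq2 or the compared groups only, and without NC1, EPL2 or EPL3 (-0.99 to -0.96).

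The reversals were all of differences near 0 that had not passed. Without EUC3, EPL1 and SUC3 the log2 difference of SPL from SUC was -0.02 for PTGS1, -0.02 for ALOX5 and 0.06 for LTA4H. The method difference between the species for PTGS1 was -5.4e-04 with RLE and -0.0029 with DESeq2. With single libraries left out, the log2 difference of SPL from SUC ran from -0.02 to 0.11 for PTGS1, -0.02 to 0.20 for PTGER2, -0.02 to 0.07 for ALOX5, -0.13 to 9.1e-04 for ALOX5AP and -0.16 to 0.07 for LTA4H. The method difference between the species ran from -0.07 to 0.07 for PTGS1 and from -0.28 to 0.03 for ALOX5AP. Depth limits PTGES most, with at most 15 reads in a library.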
